A study of Mus musculus with 3 samples.

Results

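DEHP is a phthalate plasticizer, and the step described here is the one from 10 to 100 μM DEHP in ovaries of newborn CD1 mice that were kept in culture until postnatal day 3. The step joins 2 of the 3 small RNA libraries of the series, and the library at 0 μM, which received the vehicle DMSO, was used to give each miRNA a shape over the 3 doses. Each library held RNA of pooled whole ovaries, with germ cells and somatic cells together, and there was 1 library per dose. The members were all 587 miRNAs, of 627 in the table, whose mean normalized count over the 3 libraries was at least 10, where a normalized count is the deposited count divided by a DESeq2 size factor of the library. The other 40 miRNAs were under this minimum.

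A miRNA is cut from a hairpin precursor, first by Drosha in the nucleus and then by Dicer in the cytoplasm, and each hairpin can give a mature miRNA from its 5p arm and from its 3p arm. The arm that is loaded into an Argonaute protein guides it to mRNAs through its seed, bases 2 to 8 from the 5′ end, and miRNAs with a common seed form a family. Several hairpins are often cut from 1 transcript, so that miRNAs of a genomic cluster share their transcription. In the newborn ovary, germ cell cysts break down and primordial follicles form, and germ cells, pregranulosa cells, stroma and vessels all add to the RNA of the whole organ.

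The mature sequences of the miRNAs that the dose shapes turn on are shown here, with the seed in capitals. They are from RefSeq (GRCm38.p6, the assembly called mm10 in the processing notes), which gave a sequence for 497 of the 587 miRNAs. The first set holds the miRNAs that were lower at each dose than at the one before, with the other arm of the miR-30e hairpin and miR-30a-5p, which has the seed of miR-30e-5p and differs from it at 1 base (C13U, with the base of miR-30a-5p first and positions counted from the 5′ end).
miR-32-5p: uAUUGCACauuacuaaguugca
miR-34b-5p: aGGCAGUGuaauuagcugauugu
miR-30e-5p: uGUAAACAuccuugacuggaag
miR-30e-3p: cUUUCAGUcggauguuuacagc
miR-30a-5p: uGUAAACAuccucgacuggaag

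The second set holds miRNAs that turned back, 4 of the more abundant with a low at 10 μM and then the 3 with a high there. miR-199b-5p also dipped.
miR-15b-3p: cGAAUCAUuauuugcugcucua
miR-16-1-3p: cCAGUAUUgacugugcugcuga
miR-341-3p: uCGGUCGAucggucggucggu
miR-381-3p: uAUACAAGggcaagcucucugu
miR-125a-5p: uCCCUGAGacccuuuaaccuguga
miR-6240: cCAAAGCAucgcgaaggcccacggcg
miR-3963: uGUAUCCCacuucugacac

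The third set holds miRNAs that moved at the top dose only, and 3 pairs in it share a seed. miR-148b-3p differs from miR-148a-3p by C9U and U10C, miR-10a-5p from miR-10b-5p by A12U, and miR-19a-3p from miR-19b-3p by C11U, in each case with the base of the second-named miRNA first.
miR-708-3p: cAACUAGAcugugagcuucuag
miR-28a-3p: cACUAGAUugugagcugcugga
miR-148a-3p: uCAGUGCAcuacagaacuuugu
miR-148b-3p: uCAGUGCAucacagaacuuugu
miR-10b-5p: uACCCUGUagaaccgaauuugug
miR-10a-5p: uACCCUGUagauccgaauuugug
miR-881-3p: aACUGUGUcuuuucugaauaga
miR-141-3p: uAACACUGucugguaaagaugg
miR-181c-5p: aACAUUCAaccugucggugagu
miR-19a-3p: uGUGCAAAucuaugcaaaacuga
miR-19b-3p: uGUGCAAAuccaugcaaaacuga

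The fourth set holds let-7 members that share the seed GAGGUAG and parted at the top dose. Relative to let-7a-5p, let-7f-5p carries G12A, let-7c-5p carries A19G, let-7b-5p carries A17G and A19G, and let-7i-5p carries G12U, A17G, U18C and A19U.
let-7a-5p: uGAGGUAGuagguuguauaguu
let-7f-5p: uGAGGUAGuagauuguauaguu
let-7i-5p: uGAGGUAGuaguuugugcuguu
let-7c-5p: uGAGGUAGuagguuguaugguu
let-7b-5p: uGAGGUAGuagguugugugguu

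The libraries summed to 5253367 counts at 0 μM, 5064602 at 10 μM and 5952274 at 100 μM, and their size factors were 1.38, 1.35 and 0.546. No miRNA had under 10 counts at 0 μM, while the minimum was 2 in the 10 μM library and 0 in the 100 μM library, so that miRNAs seen only after DEHP are not among the members. A count of 3 was taken as the floor, and 2 of the 587 miRNAs stood at or under it in the 10 μM library and 17 in the 100 μM library. The ovarian marker miR-202, known from gonads, was present in every library, with summed counts of its arms of 42981, 54433 and 10897.

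With 1 library per dose there is no measure of the spread between cultures, no test could be made, and no p-value is given. Each log2 ratio of normalized counts, with 0.5 added, is given with an exact 95% interval of the split of the 2 counts (Clopper-Pearson), which covers counting error only. A miRNA was said to have moved, or to have risen or fallen, in a step when its ratio was at least 2-fold and its interval left out no change. Low counts make this rule hard to meet, and 13 ratios of at least 2-fold had an interval that held no change, all for rare miRNAs whose mean normalized count reached 30.8 at most. Both steps use the 10 μM library, so a count that is low there by chance lowers the first step and raises the second.

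Far more miRNAs moved from 10 to 100 μM than from 0 to 10 μM. From 10 to 100 μM, 168 of the 587 miRNAs (28.6%) were higher and 137 (23.3%) were lower. From 0 to 10 μM, 9 (1.53%) were higher and 29 (4.94%) were lower. The SD of the log2 ratios over miRNAs was 1.64 in the top step and 0.56 in the low step. Their medians were -0.03 and 0.02, as median-of-ratios scaling sets them close to 0.

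The scaling between libraries decides where no change lies in the top step. At 100 μM miR-10b-5p took 21.0% of all counts and miR-148a-3p took 20.8%, which left fewer counts for the rest. Scaling by total counts lowers the ratios of the top step by 1.54 on the log2 scale, and then 33 miRNAs were higher and 364 were lower. Library sizes without the 10 most abundant miRNAs gave 84 higher and 267 lower. TMM and upper-quartile factors moved the median by at most 0.05. Differences between miRNAs within the step, between the arms of a hairpin and from the median of all miRNAs are the same under every scaling, apart from the 0.5 added.

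**Figure D1:**
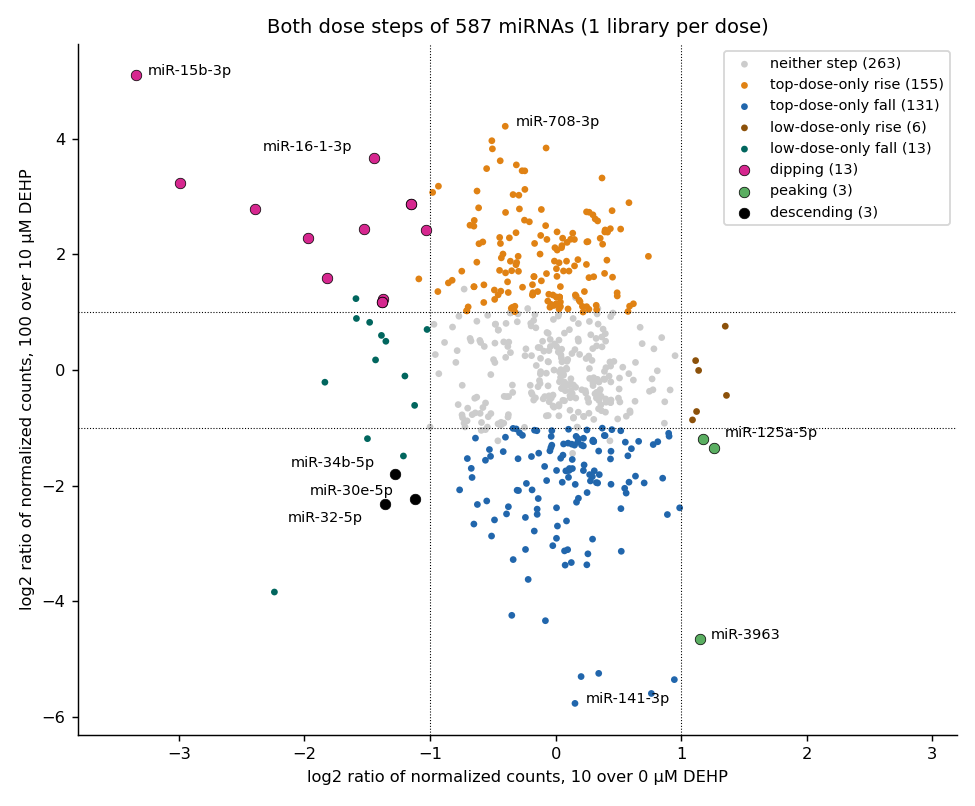
Log2 ratio of normalized counts of 587 miRNAs from 0 to 10 μM DEHP (x axis) and from 10 to 100 μM DEHP (y axis), 1 point per miRNA, coloured by dose shape, with dotted lines at a 2-fold ratio. Most coloured points lie above or below the centre, where the top step moved and the low step did not, and the upper right corner of climbing miRNAs is empty.

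Dose shapes were read from both steps. Of the 587 miRNAs, 155 were higher at the top dose only and 131 were lower at the top dose only. A further 13 dipped at 10 μM and came back, 3 peaked at 10 μM, 3 descended through both steps and 0 climbed through both. At the low dose only, 6 were higher and 13 were lower, and 263 moved in neither step. When the size of the ratio was left aside and only the counting intervals were read, 49 miRNAs climbed, 55 descended, 83 dipped and 90 peaked, so shapes of less than 2-fold in a step were of every kind. No miRNA climbed by 2-fold in both steps under any of the scalings tried.

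**Figure D2:**
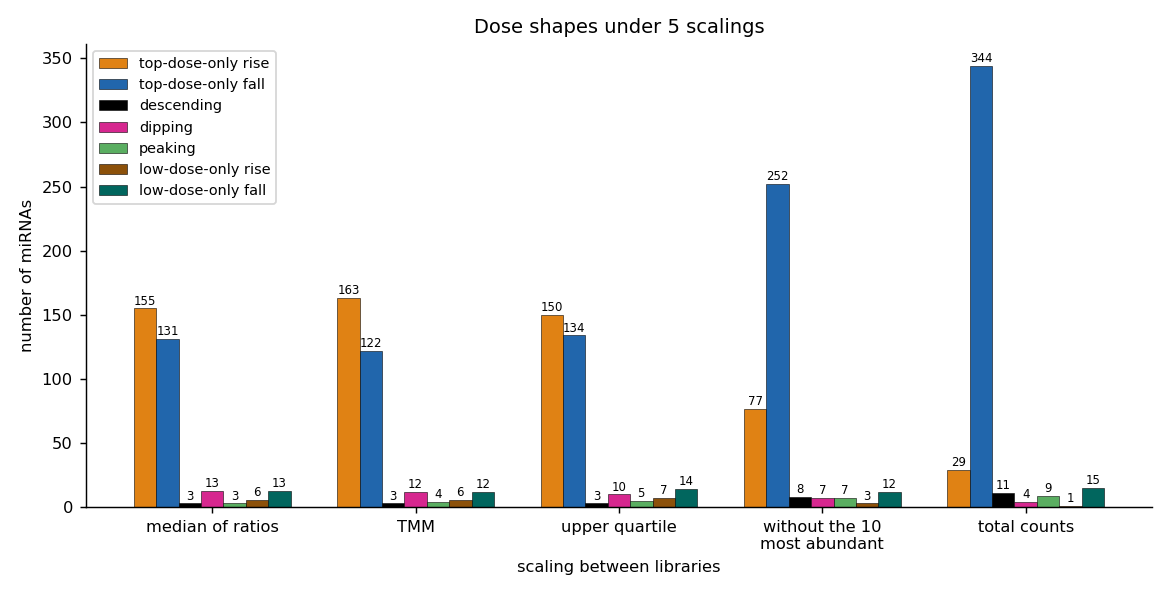
Number of miRNAs in each dose shape (bars, y axis from 0) under 5 scalings between libraries (x axis). The top-dose-only classes shift from 155 higher and 131 lower under median-of-ratios scaling to 29 higher and 344 lower under total counts, while descending miRNAs number 3 to 11, dipping miRNAs 4 to 13 and peaking miRNAs 3 to 9.

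The 3 descending miRNAs were the 5p arms miR-32-5p, miR-34b-5p and miR-30e-5p. miR-32-5p, a member of the miR-25/92 seed family, had 1391 counts at 0 μM, 531 at 10 μM and 43 at 100 μM. Its log2 ratio was -1.36 in the low step (interval -1.50 to -1.21) and -2.31 in the top step (-2.81 to -1.87). It lies at chr4:56895272-56895293 on the minus strand, within an intron of Tmem245 in the GENCODE annotation of that build, which also gives the host genes named further on. Its level at 100 μM was thus far below both other libraries, and the interval of the low step also left out no change.

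miR-34b-5p belongs to the miR-34 and miR-449 family, which is known for roles in p53 signalling and in the germ line. It had 2719, 1098 and 127 counts, with ratios of -1.28 in the low step and -1.81 in the top step (interval -2.08 to -1.54). It lies at chr9:51103610-51103632 on the minus strand, in an intron of Btg4, which is on the other strand. Its neighbour in the family, miR-34c-5p, had 14983, 6379 and 2404 counts and moved in the low step only, at -1.20, with -0.10 in the top step. miR-34a-5p had 832, 663 and 63 counts and moved in the top step only, at -2.09. The 5p arms of this family were therefore lower at different doses.

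miR-30e-5p was the most abundant of the descending miRNAs, with 37713, 16972 and 1468 counts. Its ratios were -1.12 in the low step (interval -1.15 to -1.09) and -2.23 in the top step (-2.30 to -2.15). It lies at chr4:120772660-120772681 on the minus strand, in an intron of Nfyc, the gene of a subunit of the transcription factor NF-Y. miR-30a-5p, with the same seed, had 146987, 73481 and 51497 counts, and its ratios were -0.97 and 0.79, so that the pair parted by 3.02 on the log2 scale in the top step. The descending miRNAs kept their shape under all 5 scalings, and none moved by 4-fold in both steps.

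Just under the 2-fold limit, miRNAs chosen after their values were seen also went down with dose. miR-340-5p had 56867, 34124 and 7509 counts (ratios of -0.70 and -0.88), and let-7i-3p had 221, 127 and 12 (-0.76 and -2.07). The ones that came nearest to climbing, chosen in the same way, were miR-7686-3p, miR-323-3p, miR-431-3p and miR-671-3p. miR-431-3p, of the imprinted Dlk1-Dio3 region, had 129, 181 and 399 counts, with ratios of 0.52 (interval 0.19 to 0.86) and 2.44 (2.19 to 2.71). miR-323-3p had 712, 1039 and 850 counts, with ratios of 0.58 and 1.01, and the second was -0.52 under total counts. No climbing miRNA was thus as steep as the descending ones at the low dose.

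**Figure D3:**
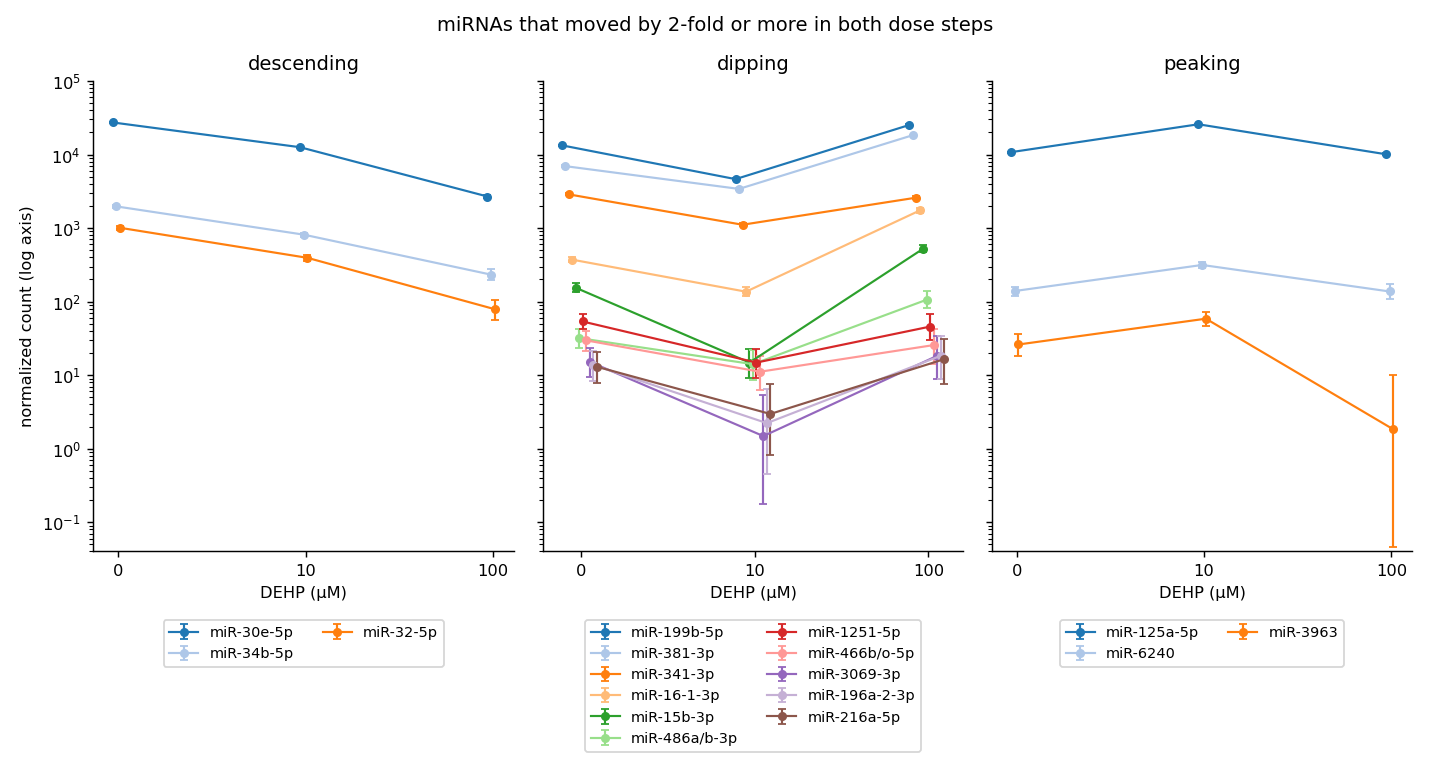
Normalized count (log axis) at 0, 10 and 100 μM DEHP for miRNAs that moved by 2-fold or more in both steps, in panels for descending, dipping and peaking miRNAs; bars are exact 95% Poisson intervals of the count of 1 library per dose. The lines of miR-30e-5p, miR-34b-5p and miR-32-5p go down at both steps, and the dipping miRNAs at the bottom of the middle panel have wide intervals at 10 μM.

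The 13 dipping miRNAs, with 11 distinct sets of counts, were low at 10 μM and higher at both ends. miR-15b-3p had 213 counts at 0 μM, 20 at 10 μM and 287 at 100 μM. Its ratios were -3.34 in the low step and 5.10 in the top step (interval 4.49 to 5.88), and at 100 μM it was above the 0 μM level by 1.76. It lies at chr3:69009813-69009834, in an intron of Smc4, a condensin subunit gene. The other arm, miR-15b-5p, had 1159, 1481 and 539 counts and moved in neither step (0.39 and -0.15).

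miR-16-1-3p had 513, 184 and 948 counts, with ratios of -1.44 and 3.66 (interval 3.44 to 3.91). It lies at chr14:61631894-61631915 on the minus strand, in an intron of Dleu2. The main arm of that family, miR-16-5p, had 8764, 9295 and 2700 counts and ratios of 0.12 and -0.48. In the miR-15b hairpin the 3p arm, the less abundant one at 0 μM, was thus the arm that turned back. miR-16-5p fills 2 rows with top-step ratios of -0.48 and -0.49, so its counts cannot be given to the miR-16-1 hairpin alone. miR-16-2-3p had 72, 67 and 7 counts and fell at the top dose only.

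Among the abundant dipping miRNAs, miR-199b-5p, which is known from mesenchymal cells, had 18414, 6246 and 13794 counts. Its ratios were -1.53 and 2.45 (interval 2.40 to 2.49). miR-381-3p had 9592, 4597 and 10023 counts (-1.03 and 2.43), and miR-341-3p had 3964, 1497 and 1417 (-1.37 and 1.22). Both are imprinted Dlk1-Dio3 miRNAs on chromosome 12, and miR-341-3p lies within an intron of Rian. miR-381-3p stood outside the limit of 12 named miRNAs per class and is named so that the class is complete.

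The other dipping miRNAs were rare. miR-486a-3p and miR-486b-3p, with the same counts, had 44, 19 and 58. miR-1251-5p had 74, 20 and 25 counts, and miR-466b-5p and miR-466o-5p, again alike, had 41, 15 and 14. miR-3069-3p had 21, 2 and 10 counts, miR-196a-2-3p had 19, 3 and 10, and miR-216a-5p had 18, 4 and 9. In all, 9 of the 13 had fewer than 30 counts at 10 μM, and 2 had a library at the floor.

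At 100 μM, 8 of the 13 dipping miRNAs were back within 2-fold of the 0 μM level and 5 were above it by more. The ratios of these 5 against 0 μM were 1.40 to 2.22, and miR-486a-3p and miR-486b-3p among them share their counts. Total counts shift the top step by -1.54 on the log2 scale, and the 5 then lie under the 2-fold limit against 0 μM. Under total counts only miR-15b-3p, miR-16-1-3p, miR-486a-3p and miR-486b-3p still dipped, and the top-step ratio of miR-341-3p became -0.31. miR-381-3p also left the class under TMM and upper-quartile factors, and miR-466b-5p and miR-466o-5p did under upper-quartile factors. With 5 added, miR-466b-5p, miR-466o-5p, miR-486a-3p and miR-486b-3p left it. Library sizes without the 10 most abundant miRNAs left 7 of the 13, and miR-1251-5p, miR-216a-5p, miR-341-3p, miR-381-3p, miR-466b-5p and miR-466o-5p were lost.

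The 3 peaking miRNAs were highest at 10 μM. miR-125a-5p, a lin-4 family member, had 14855, 34803 and 5515 counts, with ratios of 1.26 (interval 1.23 to 1.29) and -1.35 (-1.39 to -1.31). At 100 μM it was within 0.09 of the 0 μM level on the log2 scale. It lies at chr17:17830817-17830840, within an exon of a Spaca6 transcript, beside let-7e and miR-99b. miR-99b-5p of that cluster had 60237, 78214 and 118349 counts and ratios of 0.41 and 1.90, and let-7e-5p had ratios of 0.04 and 0.26. The 5p arms of this cluster therefore took different shapes.

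miR-6240 had 192, 425 and 75 counts (ratios of 1.18 and -1.20) and was back at its 0 μM level, with a ratio of -0.02 against it. Under total counts miR-125a-5p and miR-6240 stood below 0 μM instead, with ratios of -1.61 and -1.53, and the ratios were -0.86 and -0.78 when library sizes left out the 10 most abundant miRNAs. miR-3963 had 36 and 79 counts and then 1 count at 100 μM, where its ratio of -4.66 has an interval of -10.32 to -2.48. These miRNAs stayed in the peaking class under all 5 scalings.

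The class that rose at the top dose only was the largest among those that moved. Its median ratio was 1.75 in the top step and -0.07 in the low step, and 124 of its 155 members had a low step of under 0.5 in size. Against 0 μM, 132 of the 155 were also higher by 2-fold or more. miR-148a-3p, known to target DNA methyltransferase mRNA, had 311575, 215026 and 1237350 counts, which were 5.93%, 4.25% and 20.8% of the libraries. Its top-step ratio was 3.83 (interval 3.82 to 3.84), and the same ratio was 2.49 for miR-148b-3p.

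miR-708-3p had 3962, 2935 and 22151 counts (4.22 in the top step), and miR-28a-3p, of the related miR-28 family, had 975, 905 and 5266 (3.84). Both are intronic, in Tenm4 and Lpp. miR-1981-5p had 2836, 1951 and 12381 counts (3.97). The germ-cell miRNAs miR-881-3p and miR-878-5p lie close together on the X chromosome. miR-881-3p had 47423, 34173 and 170434 counts (3.62), and miR-878-5p had 4096, 2738 and 12433 (3.49). For miR-28a-3p the 0 and 10 μM libraries were close (-0.08 in the low step). The others were lower at 10 μM by less than 2-fold, with low-step ratios of -0.55 to -0.40 and intervals below 0. In each of these miRNAs the 100 μM library stood far above both.

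miR-30e-3p (3570, 4512 and 18304 counts) had a top-step ratio of 3.32 and miR-379-5p (51469, 42494 and 150320 counts) one of 3.13. The less abundant miR-200a-5p (131, 108 and 480 counts) had 3.45, and miR-704 (70, 55 and 264 counts) had 3.55. miR-10b-5p, encoded in the HoxD cluster, had 398751, 462690 and 1250029 counts, with a top-step ratio of 2.74, beside 2.22 for miR-10a-5p. All of these ratios stay above 0 under each scaling.

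The class that fell at the top dose only had a median ratio of -1.74 in the top step and 0.11 in the low step. In 98 of its 131 members the low step was under 0.5 in size, and 108 were lower than at 0 μM by 2-fold or more. miR-141-3p, an epithelial miR-200 family member, had 157 counts at 0 μM, 171 at 10 μM and 1 at 100 μM. Its ratio of -5.77 has an interval of -11.43 to -3.62. Its neighbour in the genome, miR-200c-3p, had 222, 479 and 193 counts, which put it in the low-dose-only class with ratios of 1.14 and -0.01.

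miR-19a-3p, of the miR-17~92 cluster, which is known to favour cell growth, had 717, 663 and 13 counts, with a top-step ratio of -4.34 (interval -5.29 to -3.58). miR-19b-3p had 7016, 7210 and 333 counts and a ratio of -3.13. These miRNAs, which differ at 1 base, were both close to unchanged at 10 μM and both far lower at 100 μM. The miRNAs that were also measured by qRT-PCR (miR-141-3p, miR-19a-3p and miR-32-5p) were lower in 3 of 3 in the top step and in 1 of 3 in the low step. They were picked from these libraries and are not independent evidence of a direction.

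Further falls were those of miR-126a-5p, an endothelial miRNA (9002, 10463 and 409 counts, -3.37), miR-181c-5p (879, 739 and 24, -3.63) and miR-410-3p (2152, 2516 and 112, -3.18). miR-194-5p had 1648, 1977 and 105 counts (-2.93), and miR-376b-3p had 372, 389 and 18 (-3.11). miR-143-5p (596, 574 and 28 counts, -3.04) and miR-140-5p (1495, 1300 and 76 counts, -2.79) fell while the other arms of their hairpins rose. Near the floor at 100 μM, miR-465d-3p went from 32 counts to 0. Taken against 3 counts it was 4.32-fold lower, and the upper bound of its log2 interval was -1.73. miR-669b-5p (59 to 1 count), miR-154-3p (45 to 3), miR-21b (32 to 1) and miR-21c (31 to 1) had top-step ratios of -4.25, -2.50, -3.38 and -3.33, with upper interval bounds of -2.04, -0.96, -1.11 and -1.06.

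Most miRNAs of the low-dose-only classes were rare, with median mean normalized counts of 34.6 in the rises and 30.8 in the falls. The more abundant falls were those of miR-34c-5p, given above, of miR-880-3p, an X-linked germ-cell miRNA (2677, 969 and 443 counts, ratios of -1.43 and 0.17), and of miR-136-5p, a Dlk1-Dio3 miRNA (2153, 589 and 206 counts, -1.84 and -0.21). miR-880-3p was outside the rule for named miRNAs and was chosen after its values were seen. miR-690 (86, 183 and 83 counts), miR-26a-2-3p (37, 94 and 28), miR-23b-5p (17, 37 and 9) and miR-1943-5p (10, 26 and 18) were higher at 10 μM. miR-21a-3p (26, 8 and 8), miR-466p-5p (29, 9 and 7) and miR-99a-3p (85, 29 and 5) were lower there. miR-33-5p had 46, 9 and 0 counts, and its top step was not counted as moved, as 9 counts against 0 leave an interval that holds no change.

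Among the most abundant miRNAs, miR-21a-5p and miR-199a-3p moved in neither step, and both were lower in the top step under total counts, by 1.51 and 1.74 on the log2 scale. miR-21a-5p had 366192, 380107 and 157310 counts, with a top-step ratio of 0.03 after scaling, and its share of the library went from 7.51% to 2.64%. miR-199a-3p had 154340, 191783 and 67389 counts, with a ratio of -0.20. Others among the most abundant were higher at the top dose only. miR-143-3p, a smooth muscle and stromal miRNA, had 288159, 218413 and 432017 counts and a ratio of 2.29. let-7f-5p had 188443, 187911 and 275680 counts and a ratio of 1.86.

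The difference between the arms of a hairpin, and the share of each arm, do not depend on the scaling, while the counts of arms that moved do. Of 174 hairpins with both arms past the minimum, 27 (15.5%) had arms that moved in opposite directions in the top step, 9 had both arms higher and 11 had both lower. In 86 hairpins 1 arm moved, and in 41 neither did. In 15 of the 27 the 3p arm was higher and the 5p arm lower, and in 12 it was the reverse. Under total counts 16 hairpins had opposite arms. Over all 587 miRNAs 28.6% were higher and 23.3% lower in this step, so arms moving independently of each other would also often be opposite. Whether 27 hairpins exceed that was not tested. The difference between the arms had an SD of 2.29 on the log2 scale in the top step and 0.74 in the low step. Single miRNAs had SDs of 1.64 and 0.56, so the spread of all miRNAs was also wider in the top step. It was at least 4-fold in 67 hairpins in the top step and in 2 in the low step.

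The clearest of these was miR-30e. Its 3p arm made up 8.65% of the counts of the hairpin without DEHP, with a Wilson 95% interval of 8.38% to 8.92%. This share was 21.0% in the 10 μM library (20.5% to 21.6%) and 92.6% in the 100 μM library (92.2% to 92.9%). It therefore went up in both steps, as the 5p arm descended and the 3p arm rose at the top dose. The same was seen in miR-34b, from 7.01% to 15.8% and 58.5%, and in miR-32, from 3.67% to 5.18% and 44.9%, where the intervals of the first pair overlap. All 3 descending miRNAs thus were 5p arms whose partner was higher in the top step, with ratios of 3.32 for miR-30e-3p, 1.10 for miR-34b-3p and 1.55 for miR-32-3p. Under total counts these ratios were 1.79, -0.43 and 0.04, so that the partner was clearly higher in miR-30e alone, while the shares stay as given.

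Over the 27 hairpins, the 3p share went up in both steps in 8, down in both in 7 and turned in 12. It went up with intervals apart at both steps in 5 hairpins, which were miR-30e, miR-34b, miR-106b, miR-335 and miR-671. In miR-106b the share was 51.0%, 65.0% and 95.8%. In miR-671 it reached 84.9% at the top dose, from 43.5% at 10 μM. It went down with intervals apart in 2, miR-10b and let-7i, whose 3p arms were rare throughout.

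In other hairpins the shift was far larger at the top dose than at the low dose. The 3p arm of miR-708 made up 57.7%, 54.9% and 99.3% of its hairpin, and the intervals of the first pair were also apart. That of miR-221, a miRNA known to act on Kit, made up 90.7%, 91.7% and 37.0%, with a top-step ratio of 2.18 for the 5p arm and -2.05 for the 3p arm. The 3p share of miR-743a was 82.1%, 82.5% and 41.7%. The more abundant arm changed in 25 hairpins in the top step and in 7 in the low step.

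miR-125a showed that a peak can belong to 1 arm. While miR-125a-5p peaked, miR-125a-3p had 111, 107 and 107 counts and was higher in the top step by 1.30. Its counts were the same at both ends of that step, so this rise comes from the size factors alone. Total counts shift each top-step ratio by -1.54, and the rise of miR-125a-3p is then lost. The other hairpins with opposite arms were those of miR-143, miR-140, miR-151, miR-296, miR-501, miR-25 and miR-202 with the 3p arm higher, and those of miR-27a, miR-425, miR-26b, let-7i, miR-10a, miR-10b, miR-380, miR-200a, miR-532 and miR-878 with the 5p arm higher. Among them miR-296-5p had 1 count at 100 μM and miR-501-5p had 4.

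**Figure D4:**
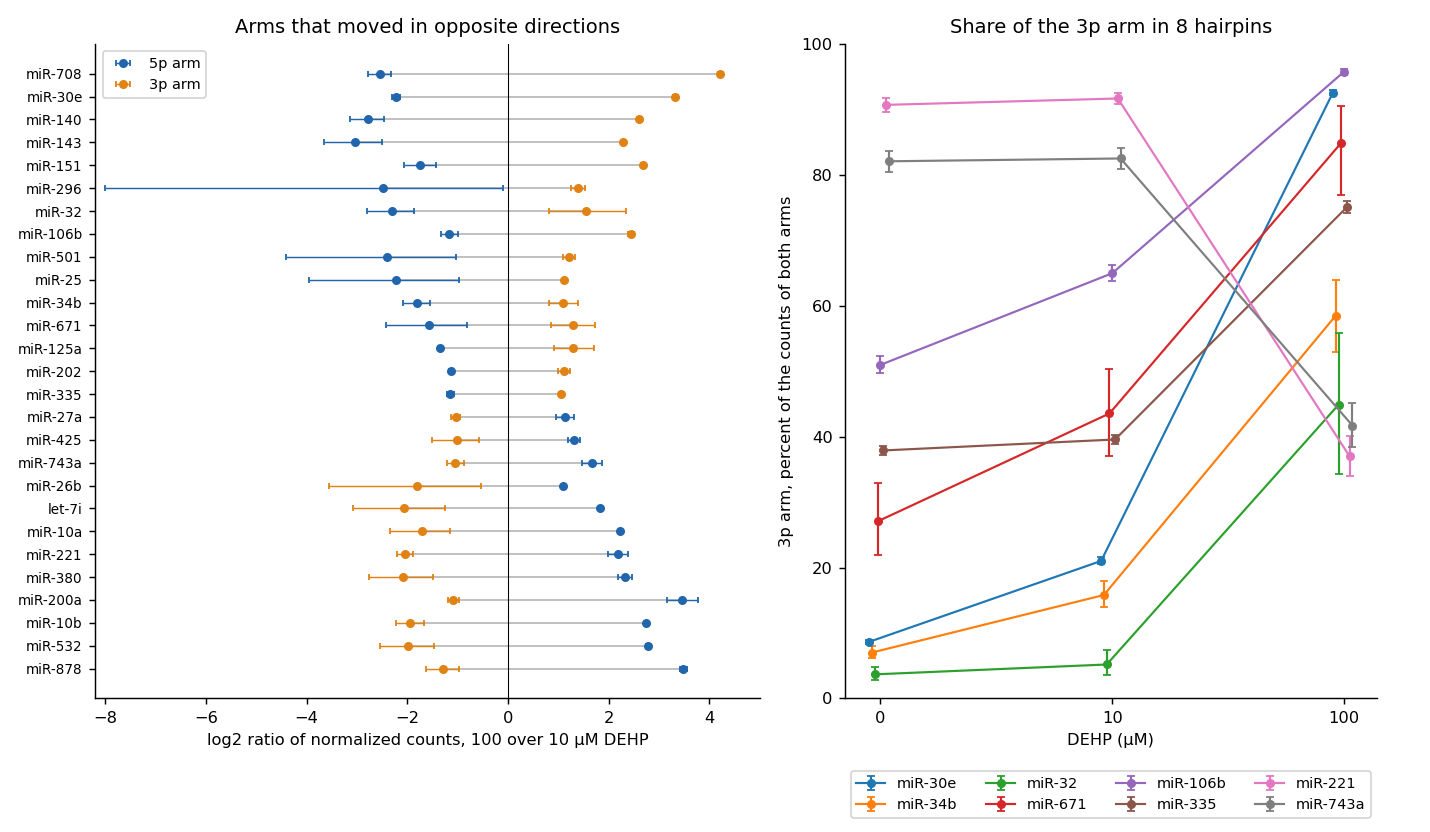
Left, log2 ratio of normalized counts from 10 to 100 μM DEHP for the 5p arm (blue) and the 3p arm (orange) of 27 hairpins whose arms moved in opposite directions, with 95% counting intervals (the interval of miR-296-5p is cut at the left edge); under total counts every point lies 1.54 lower and 16 hairpins keep opposite arms. Right, percent of the counts of both arms held by the 3p arm at each dose in 8 of these hairpins, with Wilson 95% intervals; the share of miR-30e climbs from 8.65% to 92.6% and that of miR-221 drops at the last dose.

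Members of a seed family parted in the top step more than in the low step, as did miRNAs in general. Over all miRNAs described, the SD of the log2 ratios was 1.64 in the top step and 0.56 in the low step. Whether members of a family parted more than other miRNAs did was not tested. Over 61 groups of miRNAs with a common seed, the median range of the log2 ratios within a group was 1.54 in the top step and 0.42 in the low step, and 7 groups held both a riser and a faller. In the let-7 family, which restrains growth and stem cell genes, the top-step ratio was -0.39 for let-7a-5p, 1.86 for let-7f-5p, 1.82 for let-7i-5p, -1.36 for let-7c-5p and -1.54 for let-7b-5p. let-7a-5p and let-7f-5p differ by G12A and parted by 2.24 on the log2 scale. How many mismatches were allowed in counting is not given in the sources used here, so the values of such near-identical members are uncertain.

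Some groups moved as 1. The seed AAAGUGC of miR-17-5p, miR-20a-5p, miR-20b-5p, miR-93-5p, miR-106a-5p and miR-106b-5p was lower in 6 of 6 members, with ratios of -2.70 to -1.16. The 5p arms of miR-181a, b, c and d were lower in 4 of 4, with ratios of -3.63 to -1.27. miR-294-3p, miR-295-3p and miR-291a-3p, which share a seed known from embryonic stem cells, were higher in 3 of 3, with ratios of 1.34 to 3.04 (-0.20 under total counts at the median of their cluster). Of 36 genomic clusters of hairpins, 19 held both a riser and a faller.

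The families and clusters are given next by the top step, where 28.6% of all 587 miRNAs were higher and 23.3% lower. The miR-17~92 cluster, a growth-promoting transcript, had 10 of 12 listed members past the minimum, of which 0 were higher and 9 lower, with a median of -2.38. miR-92a-3p, at -1.05, was counted by its most abundant row. The miR-106b~25 cluster had 2 of 6 higher and 4 lower, with a median of -1.17. The miR-181 family had 1 of 8 higher and 4 lower (-0.77). miR-28, miR-708 and miR-151 had 3 of 7 higher and 2 lower (-0.99). That median is the value of miR-28c (690, 760 and 155 counts), which had almost the counts of miR-28a-5p (690, 762 and 155). It thus rests on a near-duplicate, and the ratios of this list ran from -2.55 to 4.22.

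Lists with medians above 0 were the following. The miR-148 and miR-152 family had 4 of 6 higher and 0 lower, with a median of 2.39. The 3p arms of the miR-30 family had 5 of 6 higher and 0 lower (1.36, and -0.18 under total counts), while the 5p arms had 0 of 5 higher and 1 lower (-0.36). The miR-290 cluster, a pluripotency cluster, had 5 of 9 higher and 2 lower (1.34, and -0.20 under total counts). The miR-10, miR-99, miR-100 and miR-125 families had 7 of 14 higher and 4 lower (0.91, and -0.63 under total counts). miR-26 and miR-101 had 3 of 6 higher and 1 lower (0.33, and -1.20 under total counts).

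The remaining families had medians between -0.55 and -0.01. The let-7 family had 2 of 9 higher and 2 lower (-0.27), the miR-200 family 1 of 7 and 2 (-0.01), the miR-34 and miR-449 family 1 of 5 and 2 (-0.10), and the miR-15/16 family 4 of 11 and 2 (-0.24). The miR-29 family had 1 of 4 higher and 1 lower (-0.44), and the miR-23, miR-27 and miR-24 clusters had 3 of 10 and 1 (-0.04). X-linked germ-cell miRNAs, which are best known from the testis and are also found in ovaries, had 7 of 27 higher and 8 lower (-0.55), with ratios of -5.60 to 3.62. That median lies beside miR-465a-3p, miR-465b-3p and miR-465c-3p, which had the same counts (each -0.56) and were each counted as a member. The Dlk1-Dio3 miRNAs had 17 of 56 higher and 13 lower (-0.11), with ratios of -3.18 to 3.13. Their shares, 30.4% higher and 23.2% lower, were near those of all miRNAs, and so were those of the X-linked miRNAs, 25.9% and 29.6%. Medians within 0.05 of 0 change sign between scalings.

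**Figure D5:**
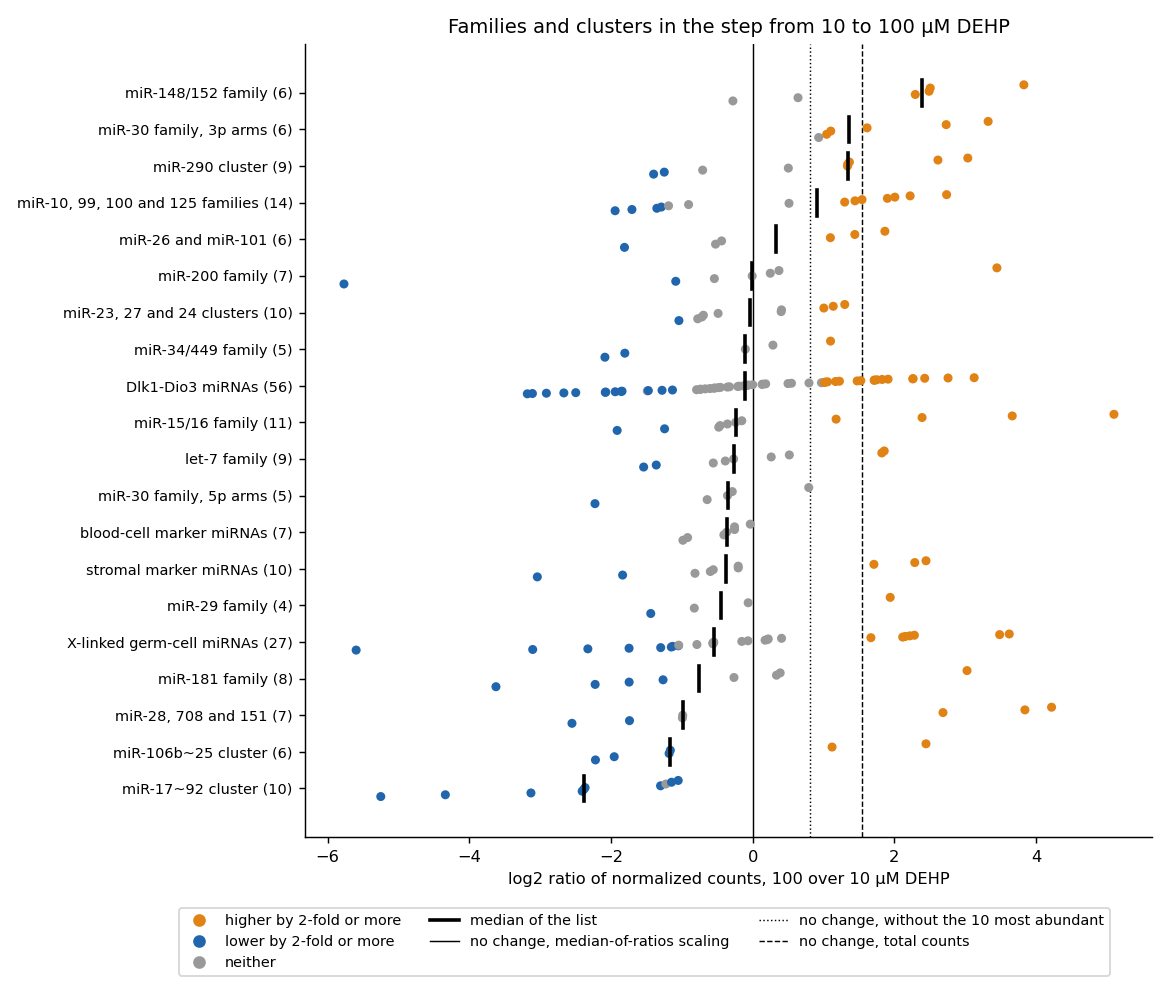
Log2 ratio of normalized counts from 10 to 100 μM DEHP (x axis) for each member of the lists with at least 4 members past the minimum (rows, number of members in brackets), with the median of each list as a black bar; vertical lines mark where no change lies under 3 scalings. The miR-17~92 cluster has its median at -2.38 and the miR-148 and miR-152 family at 2.39, and the medians of the miR-30 3p arms, of the miR-290 cluster, of the miR-10, miR-99, miR-100 and miR-125 families and of miR-26 and miR-101 fall below 0 under total counts.

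Markers of the cell types in the organ moved unevenly. The endothelial miR-126a arms were lower in 2 of 2, with a median of -2.83, and their summed normalized counts were 46170, 52252 and 9855. The gonadal miR-202 arms had 1 higher (miR-202-3p, 1.10) and 1 lower (miR-202-5p, -1.14), with summed normalized counts of 31188, 40382 and 19964. Blood-cell markers moved in 0 of 7, with a median of -0.37 (-1.89 under total counts) and normalized sums of 1167, 1196 and 965. Before scaling, the blood-cell sums were 1608, 1612 and 527 counts.

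Stromal markers had 3 of 10 higher and 2 lower, with a median of -0.38 (-1.92 under total counts). Their normalized sums were 427875, 374375 and 1099762. Of these, miR-143-3p gave 209094, 162034 and 791480. Before scaling, the stromal sums were 589667, 504637 and 600288 counts. Relative to library totals, the stromal sums were nearly level from 10 to 100 μM and lower there than at 0 μM. Whether the stromal sum rose at all, and whether blood-cell markers held steady, thus depend on the scaling. Muscle markers had 1 of 3 higher and 0 lower, with a median of -0.99 (-2.50 under total counts). The riser, miR-1a-3p (1.30), had 252 counts at both 10 and 100 μM, so its rise comes from the size factors alone. The ratios of miR-499-5p and miR-206-3p were -0.99 and -1.44. Neural markers had 0 of 2 in either direction, and the liver marker miR-122-5p (22, 14 and 8 counts) did not move. No marker past the minimum was at 0 in a library. In RNA of whole ovaries, fewer cells of a type and less miRNA per cell cannot be told apart, and the part of these marker levels in the dose shapes was not tested.

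The classes differed slightly in features that the dose shapes did not use. Of the 3p arms, 34.3% were higher and 21.5% lower in the top step, against 21.5% and 25.2% of the 5p arms. Among miRNAs that begin with C, 37.9% were higher, and among those that begin with A, 21.8% were higher and 32.3% lower. The median GC content was 50.0% in the top-dose-only rises and 45.5% in the falls. Across the 497 miRNAs with a sequence, which share the same libraries, the Spearman correlation of GC content with the top-step ratio was 0.15, and that of length was -0.08. These are weak relations over miRNAs, which are not independent of each other.

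At the limits of the rule, miR-203-3p and miR-28a-5p, each at -0.99, fell just outside the size of a moved step, and miR-23b-3p at 1.004 and miR-22-5p at -1.01 fell just inside. In all, 56 miRNAs were within 0.1 of that size in the top step. miR-742-3p and miR-1932 were just under the minimum mean of 10, at 9.90, and miR-6239, at 10.1, was just above.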

How the data were processed

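Small RNA of pooled mouse ovaries was sequenced by the authors, 1 library per dose (0, 10 and 100 μM DEHP). They trimmed adapters and low-quality reads, mapped reads with bowtie2 and counted them with miRDeep2, and they deposited raw counts per mature miRNA and precursor. mm10 and DESeq2 are named in the submitters' processing notes, and versions are not given in the sources used here. The table has 961 rows for 627 mature IDs, and the row with the highest total was kept per ID. Library totals were 5064602 to 5952274 counts. Size factors came from DESeq2 1.42.0 and other factors from edgeR 4.0.16 (R 4.3.3); ratios, with 0.5 added, and intervals were computed in Python 3.11.15 with scipy 1.17.1, and the code was tested on simulated data. Intervals cover counting error only, as reads were counted and no molecular identifiers are described.

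The members, lists and rules were chosen with earlier results of these data known. Named were the miRNAs of the climbing, descending, dipping and peaking classes (at most 12 each), the 10 rises and 10 falls at the top dose only with the interval bound farthest from 0, the 5 most abundant at 10 and at 100 μM, those at 3 counts or fewer at 100 μM with a fall of 4-fold or more, hairpins with opposite arms, the 5 largest low-dose-only steps each way, list extremes and the 3 qRT-PCR miRNAs. Alternatives were 4 other scalings, 1 or 5 added, no minimum or one of 100, summed rows and sizes of 0.5 and 2 for a moved step.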

Additional observations from a re-analysis of the deposited data

How the results depend on the processing

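No paired analysis was possible because each dose has 1 library. Under total counts the top step had 33 miRNAs higher and 364 lower, with 11 descending, 4 dipping, 9 peaking, 29 top-dose-only rises, 344 top-dose-only falls, 1 low-dose-only rise and 16 hairpins with opposite arms. The top-step medians became -0.18 for the miR-30 3p arms and -0.20 for the miR-290 cluster, and the ratios became -0.31 for miR-341-3p, -0.32 for miR-466b-5p and miR-466o-5p, -0.38 for miR-7686-3p, -0.52 for miR-323-3p and -0.25 for miR-671-3p. This follows from the shift of -1.54 that total counts give to each ratio. When the library sizes left out the 10 most abundant miRNAs, there were 84 higher and 267 lower, 8 descending, 7 dipping, 7 peaking, 77 top-dose-only rises, 252 falls and 3 low-dose-only rises. Upper-quartile factors gave 5 peaking, and adding 5 gave 3 low-dose-only rises. A minimum mean of 100, with fewer miRNAs, left 86 lower in the top step and 4 higher and 13 lower in the low step, with 5 dipping, 81 top-dose-only falls, 2 low-dose-only rises and 5 falls, and 153 in neither step.

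With a size of 0.5 the low step had 44 higher and 86 lower, with 3 climbing, 21 descending, 39 dipping, 21 peaking, 20 low-dose-only rises, 26 falls, 161 in neither step and 43 hairpins with opposite arms. With a size of 2 the top step had 72 higher and 50 lower and the low step 0 higher and 4 lower, with 0 descending, 3 dipping, 0 peaking, 69 top-dose-only rises, 50 falls, 0 low-dose-only rises, 1 fall, 464 in neither step and 6 hairpins with opposite arms. Of 587 miRNAs, 586 kept their shape with 1 added and 586 with summed rows, and 569 of 586 did with TMM factors, against 230 of 585 with total counts. The 3 descending miRNAs kept theirs in every setting but the size of 2. Depth limits the rare miRNAs most, as the median count was 97 at 100 μM against 227 at 10 μM.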

Other observations

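Some mature miRNAs fill several rows of the deposited table, 1 per precursor, and the rows can be read against each other. Of 79 IDs with several rows, 47 had rows that differ, and in 35 of these the top-step ratios were within 0.1 of each other. miR-92a-3p was the 1 ID whose rows parted by 1 or more: the row used here had 21055, 29511 and 5764 counts and a ratio of -1.05, and the second row had 4156, 6395 and 298 counts and a ratio of -3.12.

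A total of 29 miRNAs had the same 3 counts as another miRNA, which left 571 distinct sets among the 587. They include miR-199a-3p and miR-199b-3p, miR-486a-5p and miR-486b-5p, and miR-465a-3p, miR-465b-3p and miR-465c-3p. Members of these sets are not separate measurements, although the list counts and medians hold each of them as a member.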
